A study of Homo sapiens with 29 samples.

Results

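The genes described here encode the contractile apparatus of smooth muscle: the actin-binding proteins TAGLN, CNN1 and CALD1, the thin-filament proteins TPM1, TPM2 and LMOD1, the myosin subunits MYL9 and MYH11, the cytoskeletal protein SMTN and the transcriptional coactivator MYOCD. They were followed in LHCN-M2 human skeletal myoblasts after knockdown of ZNF148, a zinc finger transcription factor. LHCN-M2 cells come from 1 selected clone and are immortalized by telomerase and CDK4. All arrays come from cells transfected with 20 nM siRNA, either against ZNF148 (siZNF148) or nontargeting (siControl), and the labels call the samples biological replicates. Cells were collected 24 h after transfection in growth media while subconfluent, at 48 and 96 h in growth media when confluent, and at 48 and 96 h in differentiation media. The methods place the change to differentiation media 2 days after transfection, and neither they nor the labels say whether the hours there run from the transfection or from that change, so the same hour in both media may not be the same time since transfection. Each of the 10 groups has 3 one-colour arrays, except siControl at 96 h in growth media with 2, for 29 in all. The 10 genes were taken by name, through the RefSeq accession that the array files give for each probe. Of the 10, 9 had at least 1 named probe, with 16 probes in all, out of 22439 genes named on the array. SMTN had no named probe and has no value here. Of the 16 probes, 15 were well above background on at least 2 arrays and were tested, and each of the 9 genes kept 1 or more.

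In smooth muscle, myosin II slides along actin filaments once its regulatory light chain is phosphorylated by myosin light chain kinase, and calponin, caldesmon and tropomyosin sit on the thin filament and modulate that movement. Many genes of this apparatus are switched on by serum response factor (SRF), which binds the CArG box and acts with the coactivators myocardin (MYOCD) and the myocardin-related factors MRTFA and MRTFB. The program is the hallmark of contractile smooth muscle, but several of its genes are also transcribed in myoblasts, in myofibroblasts and in embryonic striated muscle, and the tropomyosin genes give muscle and non-muscle isoforms through alternative promoters and splicing.

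RefSeq start-site windows on GRCh38.p14 were at hand for 6 of the 10 genes (13 windows), with none for TAGLN, MYL9, MYH11 and MYOCD. The CArG box was searched for as CCWWWWWWGG (W is A or T), the MCAT element as CATTCC and the E-box as CANNTG, each on both strands. Looser variants were not searched for. In windows of 250 bases before the start and 50 after it, 1.29% of all 35116 held a CArG box, 14.03% an MCAT element and 68.7% an E-box. Among the members' 13 windows there was a CArG box in 1, which belongs to SMTN, an MCAT element in 4 and an E-box in 6. The upstream bases of CNN1 and LMOD1 are shown because both genes rose on knockdown from near the array background, and those of ACTG2 (enteric smooth muscle actin) and MYLK (myosin light chain kinase) because ACTG2 was called lower in 3 of the 5 knockdown comparisons and higher in 1, and MYLK lower in all 5. Capitals mark an E-box at -122 and -21 of CNN1 (chr19:11538601-11538850, plus strand), an MCAT element at -126 and an E-box at -41 of LMOD1 (chr1:201946549-201946798, minus strand), CArG boxes at -110 and -73 of ACTG2 (chr2:73892758-73893007, plus strand) and a CArG box at -94 of MYLK (chr3:123620549-123620798, minus strand), each counted from the start site to the first base of the match. Other motifs of ACTG2 and MYLK are not marked. A match is a description of the letters only.
CNN1: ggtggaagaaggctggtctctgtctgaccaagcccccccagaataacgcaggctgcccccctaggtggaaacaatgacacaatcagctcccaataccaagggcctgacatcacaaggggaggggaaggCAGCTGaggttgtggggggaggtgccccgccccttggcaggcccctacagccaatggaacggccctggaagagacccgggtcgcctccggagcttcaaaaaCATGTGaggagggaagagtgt
LMOD1: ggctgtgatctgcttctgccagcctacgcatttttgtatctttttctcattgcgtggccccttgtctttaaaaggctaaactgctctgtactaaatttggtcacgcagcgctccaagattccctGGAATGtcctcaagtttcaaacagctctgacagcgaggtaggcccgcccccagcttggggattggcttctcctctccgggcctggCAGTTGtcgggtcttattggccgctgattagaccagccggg
ACTG2: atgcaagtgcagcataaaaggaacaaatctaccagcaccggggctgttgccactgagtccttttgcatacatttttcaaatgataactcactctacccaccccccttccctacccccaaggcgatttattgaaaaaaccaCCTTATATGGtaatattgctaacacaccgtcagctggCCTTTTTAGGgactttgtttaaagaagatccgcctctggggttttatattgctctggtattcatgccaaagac
MYLK: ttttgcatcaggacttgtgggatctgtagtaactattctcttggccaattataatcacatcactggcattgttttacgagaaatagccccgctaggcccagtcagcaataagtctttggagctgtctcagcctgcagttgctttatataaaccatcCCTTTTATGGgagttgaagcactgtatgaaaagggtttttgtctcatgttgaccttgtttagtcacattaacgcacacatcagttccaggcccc

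All values below are log2 signals after quantile normalization, and a probe is called changed when its limma p-value, adjusted by the Benjamini-Hochberg method over all 38714 tested probes, is under 0.05 and the difference exceeds 2-fold. Between 41.5% and 56.5% of probes were well above background on an array. The ZNF148 probe itself was 8.51 to 9.83 on the siControl arrays and 6.53 to 7.29 on the siZNF148 arrays, with no overlap, and fell by 1.53 at 24 h and by 2.07 to 2.74 in the later comparisons. The 6 arrays of 24 h lie on 1 slide in a scan of their own and the other 23 on 3 slides in another scan. Levels at 24 h and at later times therefore cannot be told apart from slide and scan, whereas each knockdown difference at 24 h lies within the slide. One control array, siControl replicate 1 at 48 h in growth media, stands apart from its group, with a summed signal of 7 skeletal myotube markers of 19.04 (log2) against 11.82 on the lowest array of that group. Members' differences resting on it are given with and without it, and those of other genes and lists at 48 h in growth media are given with it first and without it where they are gathered after the lists. These are bulk cultures, so a change in the share of cells of a kind and a change of RNA per cell cannot be told apart. Scaling each array to its 75th percentile instead of quantile normalization moved the median difference over all genes at 48 h in differentiation media from -0.05 to 0.06. With 2 or 3 arrays a group, their number sets the precision.

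After ZNF148 knockdown members rose from 48 h onwards, 3 of 9 at 48 h in growth media and 5 or 6 of 9 in the other later comparisons. At 24 h none of the 9 genes was called higher and 1, CNN1, was called lower, where 2.46% of all 18398 tested genes were called higher and 3.08% lower. At 48 h in growth media MYH11, TPM1 and LMOD1 were called higher, 3 of 9 against 11.7% of all genes, and none lower against 12.2%. At 96 h in growth media TAGLN, CNN1, MYL9, MYH11, LMOD1 and TPM1 were higher, 6 of 9 against 12.3%, and none lower against 12.4%. In differentiation media 5 of 9 were higher at 48 h (15.1% of all genes), which were TAGLN, CNN1, MYH11, LMOD1 and TPM1, and the 6 genes of 96 h growth media were higher again at 96 h (10.5%), with none lower at either time (17.3% and 12.8% of all genes). The median difference of the 9 genes was -0.41, 0.30, 1.31, 2.14 and 1.71 in the 5 comparisons in that order, beside medians over all genes between -0.06 and -0.00074. The value at 24 h is that of MYH11, which like LMOD1 and MYOCD was not well above background on any 24 h array and so has no direction there. The arrays of the groups did not overlap for 7, 5, 9, 7 and 8 of the 9 genes, where 55.6%, 62.8%, 75.2%, 70.2% and 65.6% of all genes did not overlap either, so the members' share was below that of all genes at 48 h in growth media. Counts are over the brightest tested probe of each gene, and the second probe of TPM2 goes the other way, as described further on.

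**Figure D1:**
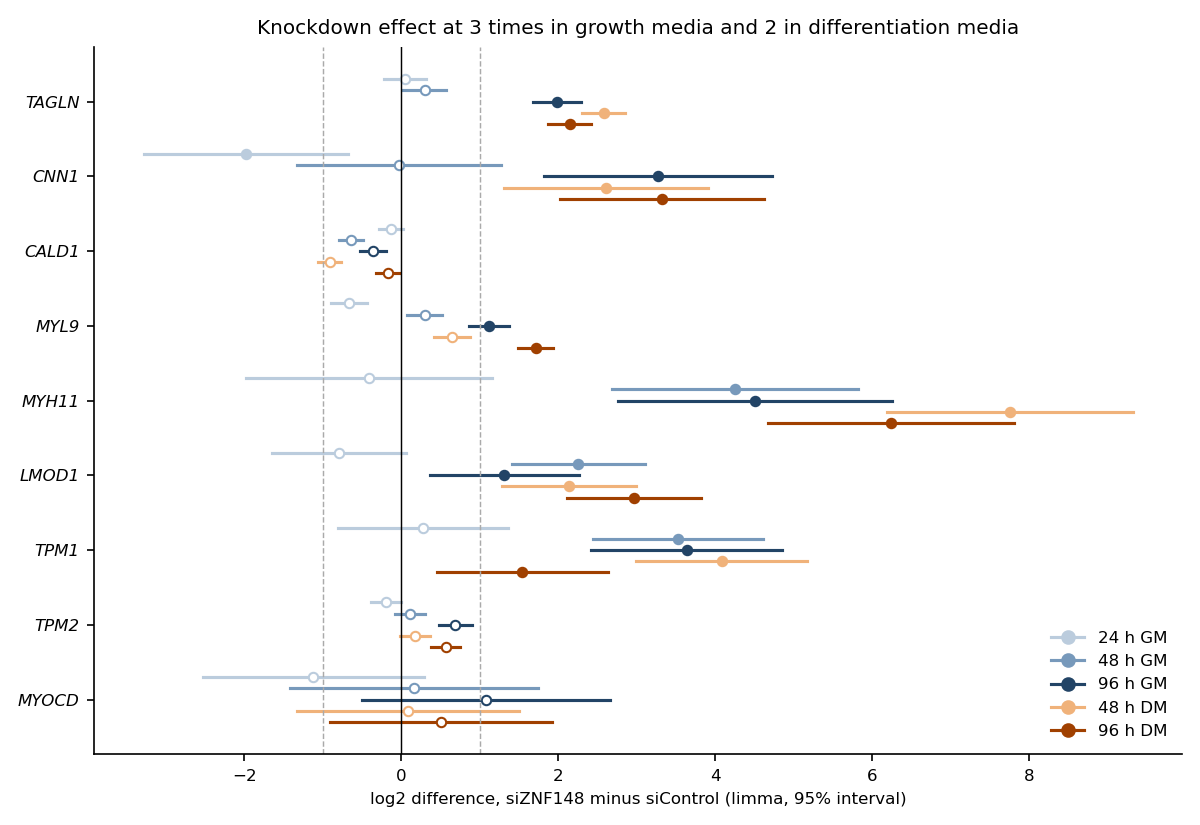
Log2 difference of siZNF148 minus siControl for the brightest tested probe of each of the 9 members in the 5 knockdown comparisons. Bars are 95% intervals and dashed lines lie at -1 and 1. Filled points are probes called at adjusted p under 0.05 and over 2-fold. MYH11 reaches a fitted 7.76 at 48 h in differentiation media against controls that were all below background. There only a bound of at least 95.6-fold holds. The TPM2 probe A_23_P216501 is not drawn here and is shown with the tropomyosin probes.

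TAGLN encodes transgelin (SM22), an actin-bundling protein that is an early marker of the smooth muscle lineage. In growth media its signal at 24 h was 11.72, 11.70 and 11.68 in siControl and 11.73, 11.77 and 11.74 in siZNF148, and at 48 h it was 12.82, 12.91 and 12.71 against 13.10, 13.03 and 13.19. At 96 h the control arrays read 12.17 and 12.33 and the knockdown arrays 14.19, 14.22 and 14.31. The groups did not overlap at any of these times, but they nearly touched at 24 h and were far apart only at 96 h. The fitted difference was 0.05 (SE 0.13, adjusted p = 0.888) at 24 h, 0.30 (SE 0.13, adjusted p = 0.0725) at 48 h and 1.99 (SE 0.15, adjusted p = 4.23e-10), a 3.97-fold rise, at 96 h. In differentiation media the controls read 10.60, 9.97 and 9.77 at 48 h and 11.58, 11.57 and 11.74 at 96 h, and the knockdown arrays 12.60, 12.74 and 12.73 and then 13.68, 13.88 and 13.78. Every knockdown array was above every control array at both times. The rise was 5.98-fold at 48 h (2.58, SE 0.13, adjusted p = 3.28e-13) and 4.43-fold at 96 h (2.15, SE 0.13, adjusted p = 1.46e-11), and a second TAGLN probe moved in parallel.

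CNN1 encodes calponin 1, which binds actin and lowers the ATPase activity of myosin. It was dim, with 23 of 29 arrays well above background. At 24 h siControl read 4.91, 6.77 and 5.04, and the siZNF148 arrays read 2.37, 4.05 and 4.35 with none well above background. The groups did not overlap, and the fit gave -1.98 (SE 0.62, adjusted p = 0.0234), a signal at least 1.54-fold lower. This call was lost without siControl replicate 2 (-1.38, adjusted p = 0.156) or without siZNF148 replicate 1 (-1.37, adjusted p = 0.159), and when the background was corrected by normexp (-0.53, adjusted p = 0.111) or only the arrays of the comparison were fitted (adjusted p = 0.136). At 48 h in growth media siControl read 5.06, 4.63 and 6.29 and siZNF148 5.35, 5.21 and 5.33, a difference of -0.03 with a 95% interval from -1.33 to 1.27. The knockdown arrays lay inside the range of the controls there. In growth media at 96 h, 5.55 and 3.65 in siControl, the second not well above background, compared with 7.58, 8.16 and 7.88 in siZNF148, a rise of 3.27 (SE 0.70, adjusted p = 0.000508). That value was 4.23 without control replicate 1 and 2.32 without control replicate 2. In differentiation media siControl read 4.37, 4.88 and 4.38 at 48 h and 4.80, 6.96 and 5.64 at 96 h, and siZNF148 read 6.65, 8.09 and 6.74 and then 9.13, 8.92 and 9.31. All knockdown arrays lay above all control arrays of their time. The rises were 2.62 (SE 0.62, adjusted p = 0.00111) and 3.32 (SE 0.62, adjusted p = 0.000125), and under normexp, which pulls dim probes towards 0, they were 1.22 and 2.45 with both calls retained.

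CALD1 encodes caldesmon, which blocks myosin on the thin filament and exists as a heavy smooth muscle form and a light form of other cells. Its signal was high on all arrays. In growth media the siControl arrays read 14.11, 14.10 and 14.09 at 24 h, followed by 14.09, 14.24 and 14.38 at 48 h, and the 96 h pair read 14.52 and 14.39. The siZNF148 arrays read between 13.90 and 14.02, then 13.66, 13.62 and 13.50, and then 14.07, 14.12 and 14.10. Each knockdown array lay below the controls of its time, by less than 1 log2 unit. In differentiation media siControl read 14.06, 14.16 and 14.20 at 48 h and 14.06, 14.08 and 14.03 at 96 h, against 13.12, 13.25 and 13.31 and 13.95, 13.78 and 13.92 in siZNF148. The difference was largest at 48 h in differentiation media, -0.91 (SE 0.07, adjusted p = 4.49e-10), and was -0.64 (adjusted p = 1.96e-07) at 48 h and -0.36 (adjusted p = 0.000821) at 96 h in growth media. None passed the 2-fold threshold. The values at 24 h, -0.13 (adjusted p = 0.244), and at 96 h in differentiation media, -0.17 (adjusted p = 0.054), passed neither criterion.

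**Figure D2:**
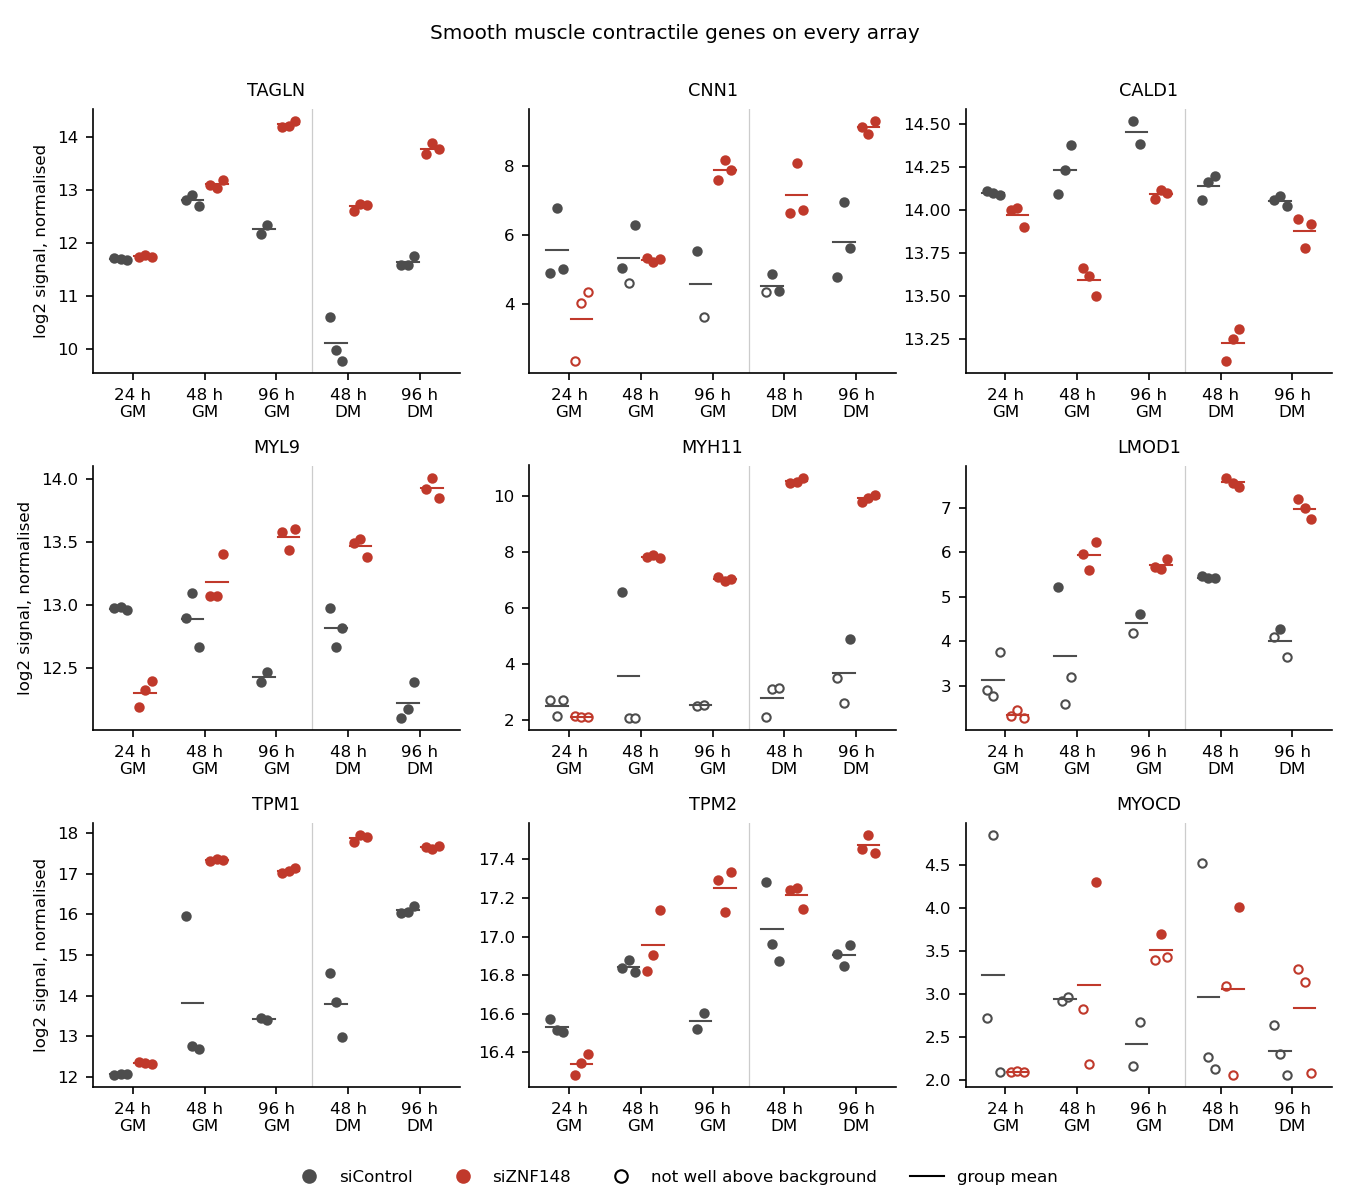
Normalised log2 signal of the brightest tested probe of each of the 9 members on every array, by hour and media (GM, growth media, DM, differentiation media), with siControl and siZNF148 side by side, open symbols for arrays not well above background and lines at group means. TAGLN lies higher on every siZNF148 array than on the controls of its time, by more than 1 log2 unit at 96 h in growth media and at both times in differentiation media, MYH11 leaves the background with siZNF148 at 48 h, and MYOCD stays near background throughout.

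Tropomyosins are coiled coils that lie along actin and set where myosin can bind. The brightest TPM1 probe, A_33_P3335966 (NM_001018005), rose on knockdown at every time after 24 h. At 24 h it read 12.05, 12.08 and 12.08 in siControl and 12.37, 12.35 and 12.33 in siZNF148, a difference of 0.28 (SE 0.52, adjusted p = 0.81). At 48 h in growth media siControl read 15.96, 12.77 and 12.70, the first being the array that stands apart, and siZNF148 17.31, 17.37 and 17.34. The knockdown arrays exceeded even that control, and the difference was 3.53 (SE 0.52, adjusted p = 7.07e-06), or 4.61 without it. By 96 h in growth media 13.46 and 13.40 stood against 17.01, 17.06 and 17.13, a 12.5-fold rise (3.64, SE 0.58, adjusted p = 2.17e-05). In differentiation media siControl read 14.56, 13.84 and 12.99 at 48 h and 16.04, 16.06 and 16.21 at 96 h, and siZNF148 17.77, 17.96 and 17.91 and then 17.66, 17.60 and 17.68. Control and knockdown arrays did not overlap, but the controls themselves were high by 96 h. The difference was accordingly 4.08 (SE 0.52, adjusted p = 6.52e-07) at 48 h and 1.54 (SE 0.52, adjusted p = 0.018) at 96 h.

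The other TPM1 probes followed in part, and both were called higher only at 96 h in growth media. A_23_P206018 (NM_001018004) read 12.29, 12.30 and 12.10 in siControl and 12.07, 12.18 and 12.32 in siZNF148 at 48 h in growth media, and 13.24, 12.82 and 12.27 against 10.95, 10.82 and 10.87 at 48 h in differentiation media. The first pair overlapped and the second did not, and the differences were -0.04 (adjusted p = 0.862) and -1.90 (SE 0.14, adjusted p = 1.74e-10). At 96 h the same probe rose by 1.24 (SE 0.16, adjusted p = 1.17e-06) in growth media and gave 0.03 (adjusted p = 0.911) in differentiation media. A_24_P44462 (NM_000366) rose by 1.66 (SE 0.14, adjusted p = 5.04e-09) at 96 h in growth media and stayed within 2-fold elsewhere, with 0.85 (adjusted p = 9.77e-06) at 48 h in growth media and 0.64 (adjusted p = 0.000278) at 96 h in differentiation media. With the probes of a gene averaged, TPM1 fell short of 2-fold at 48 h (0.83) and 96 h (0.74) in differentiation media.

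The TPM2 probes also split. The brightest, A_33_P3270599 (NM_001301226), ranged only from 16.28 to 17.53 over all arrays, and its differences went from -0.19 (adjusted p = 0.135) at 24 h to 0.69 (SE 0.10, adjusted p = 6.45e-06) at 96 h in growth media, with no call. The second probe, A_23_P216501 (NM_213674), read 17.08, 17.09 and 17.13 in siControl and 16.77, 16.89 and 16.83 in siZNF148 at 24 h. It read in growth media 16.87, 17.36 and 17.22 against 15.13, 15.22 and 15.20 at 48 h, and at 96 h 17.03 and 17.12 against 14.67, 14.72 and 14.87. The knockdown arrays thus lay below all controls, narrowly at 24 h and by a wide margin later. In differentiation media it read 17.55, 17.48 and 17.37 against 15.09, 14.90 and 15.09 at 48 h, and 16.89, 16.66 and 16.86 against 13.82, 14.09 and 13.83 at 96 h. The fall was 3.91-fold at 48 h in growth media (-1.97, SE 0.10, adjusted p = 1.96e-12), -2.32 at 96 h in growth media (SE 0.12, adjusted p = 9.69e-13), 5.42-fold at 48 h in differentiation media (-2.44, SE 0.10, adjusted p = 1.83e-14) and 7.41-fold at 96 h (-2.89, SE 0.10, adjusted p = 5.32e-15). The files do not say which isoforms each tropomyosin probe detects. The tropomyosin plot shows that probes of the same gene parted on the same arrays.

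**Figure D3:**
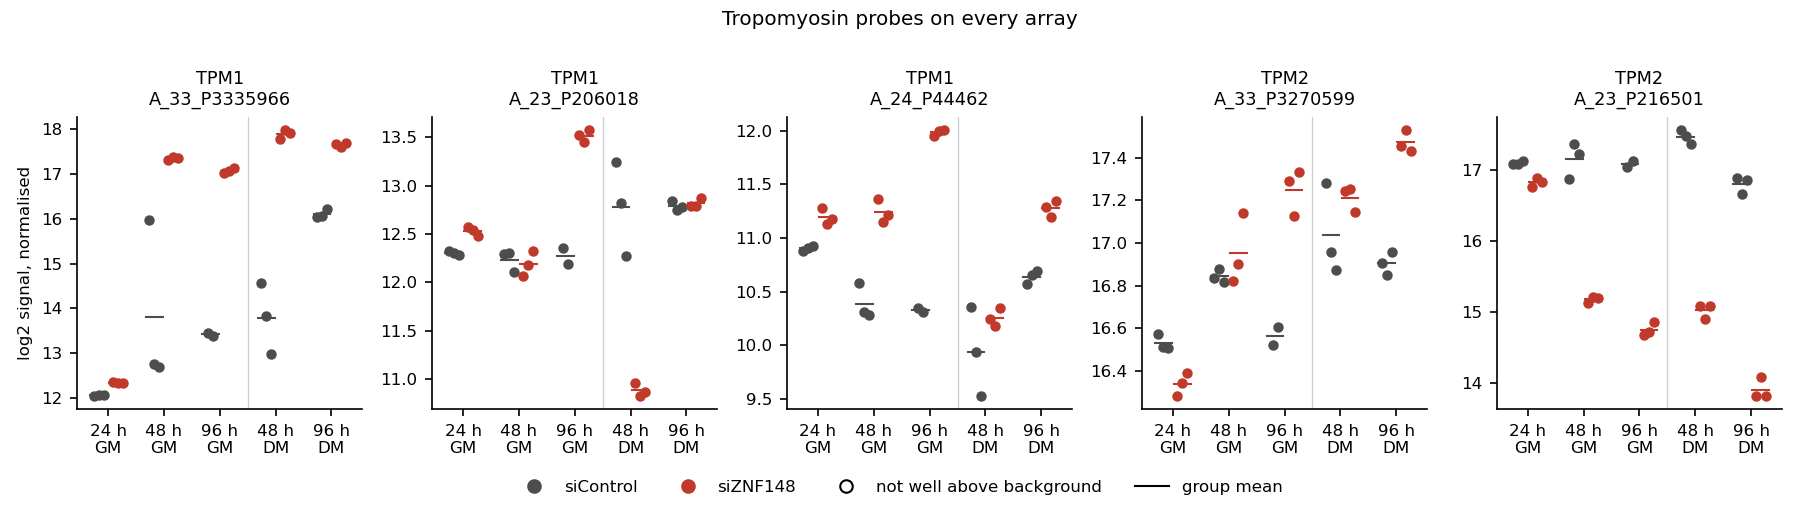
Normalised log2 signal of the 3 TPM1 and 2 TPM2 probes on every array, by hour and media, with siControl and siZNF148 side by side and lines at group means. The TPM1 probe A_33_P3335966 is above 17 on all siZNF148 arrays after 24 h, and the TPM2 probe A_23_P216501 is at or below 15.22 on the same arrays against 16.66 or more in siControl.

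LMOD1 encodes leiomodin 1, which nucleates actin filaments in smooth muscle. At 24 h no array was well above background, with 2.91, 2.77 and 3.75 in siControl and 2.32, 2.45 and 2.28 in siZNF148. At 48 h in growth media siControl read 5.23, 2.59 and 3.20, of which only the first, the array that stands apart, was above background, and siZNF148 read 5.96, 5.59 and 6.24. The knockdown arrays were higher than each control, with a difference of 2.26 (SE 0.41, adjusted p = 8.11e-05). Without that control array both remaining controls were below background and the signal was at least 2.95-fold higher on knockdown. The 96 h controls in growth media, 4.18 and 4.62, stood against 5.66, 5.63 and 5.86, a 2.49-fold rise (1.31, SE 0.46, adjusted p = 0.0232) that was lost without control replicate 1 (1.09, adjusted p = 0.169) or siZNF148 replicate 3 (1.24, adjusted p = 0.0596). In differentiation media siControl read 5.46, 5.41 and 5.41 at 48 h and 4.09, 4.27 and 3.66 at 96 h, when only the second control was above background, and siZNF148 7.68, 7.55 and 7.47 and then between 6.74 and 7.20. These groups were far apart for their spread, with rises of 4.40-fold (2.14, SE 0.41, adjusted p = 0.000117) and 7.84-fold (2.97, SE 0.41, adjusted p = 2.77e-06). Under normexp the growth-media rises were 0.66 at 48 h and 0.50 at 96 h, short of 2-fold, and those in differentiation media 1.20 and 1.23. Fitting only the arrays of the comparison gave adjusted p = 0.0575 at 48 h in growth media. The second LMOD1 probe was above background on 4 of 29 arrays and was not called, with 1.72 (adjusted p = 0.107) and 1.29 (adjusted p = 0.241) in differentiation media at 48 and 96 h.

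MYL9 encodes the regulatory light chain that is phosphorylated in smooth muscle contraction. At 24 h siControl read 12.97, 12.98 and 12.96 and siZNF148 12.19, 12.32 and 12.39, and at 48 h in growth media 12.89, 13.09 and 12.67 stood against 13.07, 13.07 and 13.40. At 96 h in growth media the controls read 12.38 and 12.47 and the knockdown arrays 13.58, 13.44 and 13.60. The order of the groups thus changed, from lower on every knockdown array at 24 h, through overlap at 48 h, to higher on every knockdown array at 96 h. The differences were -0.67 (SE 0.11, adjusted p = 8.29e-05), 0.30 (SE 0.11, adjusted p = 0.029), both within 2-fold, and 1.11 (SE 0.12, adjusted p = 1.37e-07). In differentiation media 12.97, 12.66 and 12.81 stood against 13.49, 13.52 and 13.38 at 48 h, and 12.10, 12.17 and 12.38 against 13.92, 14.01 and 13.85 at 96 h. Neither time showed overlap, and the difference was 0.65 (SE 0.11, adjusted p = 2.46e-05), under 2-fold, and then 1.71 (SE 0.11, adjusted p = 2.76e-11), a 3.28-fold rise.

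MYH11 encodes the smooth muscle myosin heavy chain, regarded as the most specific marker of mature smooth muscle. At 24 h no array of either group was well above background, with all values between 2.09 and 2.72. In growth media at 48 h siControl read 6.59, 2.07 and 2.07, only the array that stands apart being above background, and siZNF148 7.82, 7.89 and 7.80. The 96 h growth media controls read 2.51 and 2.54, below background, and the knockdown arrays 7.11, 6.97 and 7.03. From 48 h on every siZNF148 array thus carried a measurable MYH11 signal, while at most 1 control array of a group did. In differentiation media siControl read 2.12 to 3.13 at 48 h, below background, and 3.48, 2.61 and 4.90 at 96 h, with only the third above it, whereas siZNF148 read 10.48, 10.48 and 10.66 and then 9.80, 9.92 and 10.03. The groups did not overlap at 48 or 96 h in either media. The fitted difference was 4.26 (SE 0.75, adjusted p = 6.1e-05) at 48 h in growth media. Without the control array that stands apart the signal was at least 11.01-fold higher on knockdown (adjusted p = 1.17e-10). With controls below background, the rise was at least 7.58-fold at 96 h in growth media (adjusted p = 0.000125) and at least 95.6-fold at 48 h in differentiation media (adjusted p = 1.06e-08). At 96 h in differentiation media it was 6.25 on the log2 scale (SE 0.75, adjusted p = 4.35e-07). A second MYH11 probe gave bounds of 7.58, 94.3 and 55.6-fold in the last 3 comparisons, and normexp gave fits of 1.88, 1.66, 4.48 and 3.86 in the order of the 4 later comparisons. With only the arrays of the comparison fitted, the difference at 48 h in growth media had adjusted p = 0.0528.

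Within every slide that held both groups, the members' called knockdown differences kept their direction. In growth media at 48 h MYH11 differed by 5.73, 1.30 and 5.75 on the 3 slides, TPM1 by 4.58, 1.40 and 4.61 and LMOD1 by 3.65, 0.36 and 2.76, the low value in each case on the slide with the control array that stands apart. In differentiation media at 48 h TAGLN differed by 2.14, 2.84 and 2.76 and CNN1 by 3.72, 2.27 and 1.86. For the 96 h groups, 2 slides hold both groups in differentiation media, with MYL9 at 1.63 and 1.72, and 1 slide holds both in growth media, with TAGLN at 1.97.

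MYOCD, the coactivator that drives this program in smooth muscle, was not well above background on 26 of 29 arrays, and 3 siZNF148 arrays carried a signal above it. Those arrays read 4.30 at 48 h and 3.70 at 96 h in growth media, and 4.01 at 48 h in differentiation media. In no comparison was MYOCD called, with differences from -1.12 (adjusted p = 0.279) at 24 h to 1.09 (adjusted p = 0.282) at 96 h in growth media. One siControl value at 48 h in growth media was missing and was left out of its fit, and a second MYOCD probe was above background on none of 29 arrays.

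SRF itself rose at 48 h in both media. Its probe read 7.68, 7.49 and 7.76 in siControl and 8.06, 7.98 and 7.97 in siZNF148 at 24 h, and 8.09, 7.07 and 7.71 against 9.06, 8.95 and 8.99 at 48 h in growth media. At 96 h in growth media 7.79 and 7.56 stood against 8.30, 8.35 and 8.35. All knockdown arrays lay above the controls of their time in growth media, with differences of 0.36 (adjusted p = 0.158), 1.38 (adjusted p = 9.24e-07) and 0.66 (adjusted p = 0.00806), of which only the second passed 2-fold. In differentiation media SRF read 7.63, 7.59 and 7.65 against 9.59, 9.63 and 9.65 at 48 h, a rise of 2.00 (adjusted p = 2.1e-09), and 8.14, 8.43 and 8.16 against 8.69, 8.08 and 8.62 at 96 h, where the groups overlapped (0.22, adjusted p = 0.322). MRTFA, which carries actin signals to SRF, rose by 1.08 (adjusted p = 9.61e-10) at 48 h in differentiation media, and its differences of 0.84 and 0.71 at 48 and 96 h in growth media were under 2-fold. The differences of the related MRTFB lay between -0.24 and 0.26.

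Other genes of smooth muscle contraction outside the 10 did not share 1 direction. ACTA2, the smooth muscle alpha-actin that is also made in developing striated muscle, rose by 2.29 (adjusted p = 9.66e-08) at 48 h in growth media. It rose by 1.94 (adjusted p = 4.59e-06) at 96 h in growth media and by 2.64 (adjusted p = 5.65e-09) at 48 h in differentiation media. At 24 h it read 12.37, 12.41 and 12.38 in siControl and 12.68, 12.76 and 12.81 in siZNF148. At 96 h in differentiation media 15.02, 15.07 and 15.18 stood against 15.52, 15.59 and 15.46. Both of these gaps were within 2-fold. ACTG2 read 12.55, 12.86 and 13.10 in siControl and 7.58, 7.30 and 7.39 in siZNF148 at 48 h in growth media, and 5.95, 6.74 and 6.44 against 12.06, 11.92 and 12.17 at 96 h in differentiation media. The groups were thus several log2 units apart at both points, in opposite directions, with -5.41 (adjusted p = 2.78e-16) and 5.67 (adjusted p = 1.29e-16). ACTG2 also fell by 1.33 at 96 h in growth media and by 1.48 at 48 h in differentiation media. Its knockdown difference at 96 h was 7.01 higher in differentiation than in growth media (adjusted p = 6.9e-14). At 96 h in growth media siControl read 13.22 and 13.21 and siZNF148 11.73, 12.04 and 11.88. The siZNF148 level at 96 h was thus similar in both media, while the siControl level was far lower in differentiation media. MYLK, the kinase that phosphorylates MYL9, read 12.54, 13.04 and 13.11 in siControl and 9.71, 9.83 and 9.55 in siZNF148 at 48 h in growth media. It fell in all 5 comparisons, by 1.22 at 24 h, 3.20 and 2.94 at 48 and 96 h in growth media and 4.01 and 2.59 at 48 and 96 h in differentiation media (adjusted p from 1.18e-07 to 1.14e-16). Both ACTG2 and MYLK carry CArG boxes in the sequences shown above, and they moved apart at 96 h in differentiation media.

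**Figure D4:**
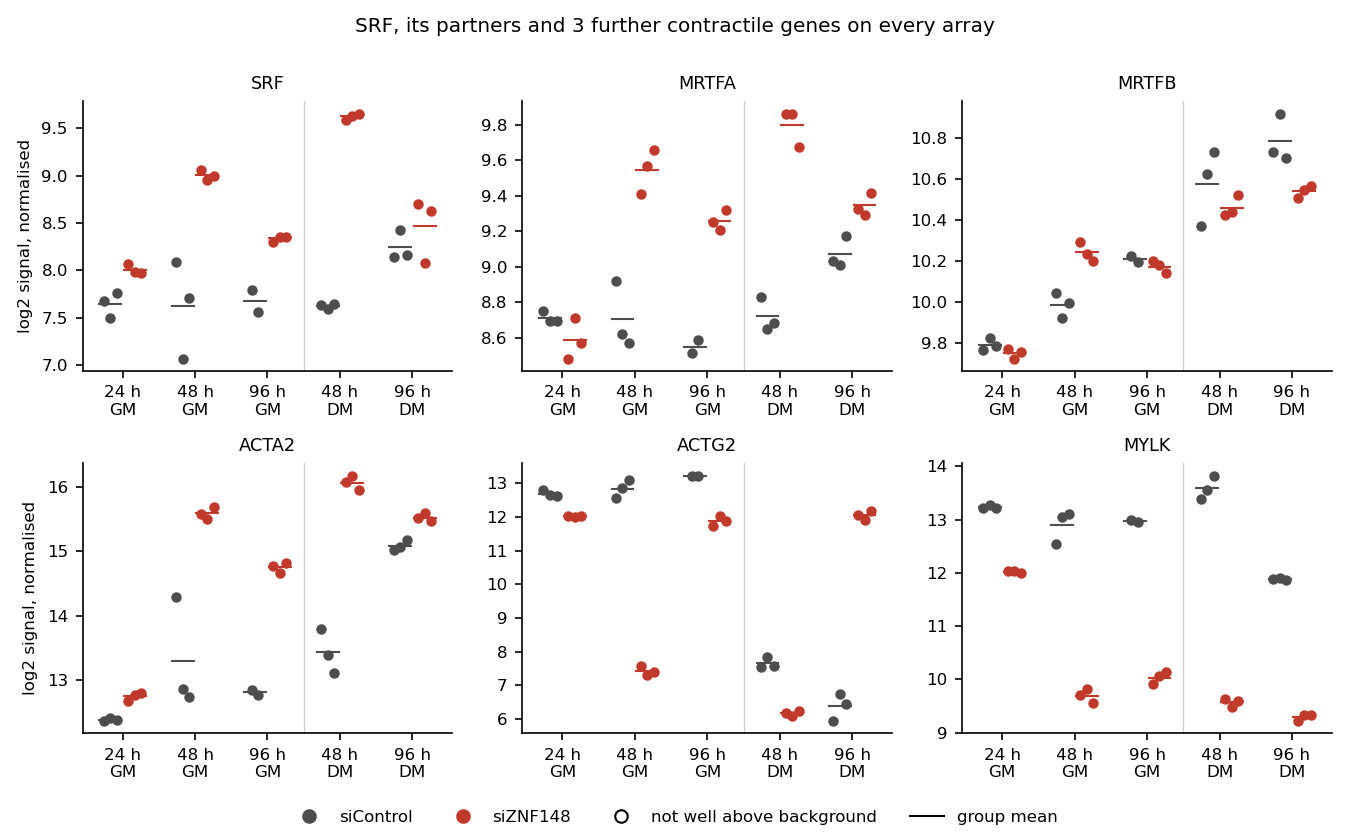
Normalised log2 signal of SRF, MRTFA, MRTFB, ACTA2, ACTG2 and MYLK on every array, by hour and media, with siControl and siZNF148 side by side and lines at group means. MYLK is lower on every siZNF148 array than on the controls of its time, while ACTG2 is below its controls in growth media and above them at 96 h in differentiation media.

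Among 32 SRF and MRTF targets outside the members, 1 was higher and 2 lower at 24 h. In growth media 12 were higher and 5 lower at 48 h, and 13 higher and 6 lower at 96 h, while differentiation media gave 17 higher and 7 lower at 48 h, then 12 higher and 5 lower. Their median difference was 0.07, 0.37, 0.63, 1.59 and 0.75 in the same order. Of all tested genes 2.46%, 11.7%, 12.3%, 15.1% and 10.5% were higher in that order. The shares lower were 3.08%, 12.2%, 12.4%, 17.3% and 12.8%. These shares also stand beside the counts of the regulators and paralogs below. ANKRD1, a stress-responsive repeat protein of striated muscle, rose by 5.48, 5.39, 5.81 and 3.15 in the 4 later comparisons. SYNPO2, an actin-bundling protein, fell by 2.34 at 96 h in growth media and by 2.26 and 2.10 in differentiation media. At 24 h the fall of EGR1, an immediate early transcription factor, was 2.70 and the rise of CCN2, a matricellular protein, 1.04. Of 20 regulators of SRF activity, 19 were tested, with 2 higher and 0 lower at 24 h and then 7 and 3, 7 and 1, 9 and 1, and 7 and 0 in the other comparisons. KLF5, a zinc finger factor of smooth muscle remodelling, rose by 2.83, 2.54, 3.43 and 2.64 from 48 h on, and ABRA, an actin-binding activator of SRF in striated muscle, was at least 12.4-fold higher at 96 h in growth media and at least 22.2-fold higher at 48 h in differentiation media, where its controls were below background. FHL2, a LIM protein that binds SRF, fell by 1.94 and 1.87 at 48 and 96 h in growth media.

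Among genes of TGF-beta signalling, which feeds into the smooth muscle program, the receptor gene TGFBR2 fell in all 5 comparisons, by 2.99, 3.65, 3.19, 3.09 and 2.99. The ligand TGFB2 rose by 2.41, 3.43, 2.20 and 1.57 in the later comparisons, and PRKG1, the cGMP-dependent kinase that relaxes smooth muscle, by 3.31, 2.64, 5.57 and 2.67. Paralogs of the members used outside smooth muscle went both ways, with 0, 5, 5, 6 and 7 of 17 tested (19 listed) higher and 0, 4, 3, 4 and 3 lower. LMOD2, the leiomodin of striated muscle, rose by 6.50, 8.88, 7.35 and 4.56, and TMOD1, the tropomodulin of striated muscle thin filaments, by 5.01, 5.43 and 5.57 in the first 3 of these. TAGLN2, the transgelin of non-muscle cells, fell by 1.64, 1.61, 2.32 and 1.02, in the direction opposite to TAGLN, and the non-muscle myosin gene MYH10 fell by 2.09 at 96 h in growth media.

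Without the control array that stands apart, no gene named above lost its call at 48 h in growth media or changed direction. SRF then gave 1.62, ACTA2 2.79, ACTG2 -5.56, MYLK -3.38, KLF5 3.48, PRKG1 4.22 and TGFB2 2.97. ANKRD1 gave 7.47 in place of 5.48, LMOD2 8.87 in place of 6.50 and TMOD1 6.48 in place of 5.01, the last 2 against controls that were then below background, so that these are fitted values and no bounds. The targets outside the members gave 13 higher and 6 lower, with a median of 0.35, the regulators 8 and 3 and the paralogs 5 and 4, where 12.9% of all genes were higher and 14.1% lower.

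Skeletal myotube markers were also called higher on knockdown from 48 h on. MYH11, TPM1 and LMOD1 were highest in their control group on the array that stands apart, while TAGLN, CNN1 and MYL9 were not. Of 8 myotube markers 7 were tested, and 0, 7, 7, 7 and 3 were called higher with none lower, with medians of -0.07, 5.88, 5.93, 6.10 and 3.06. Without the control array that stands apart the median at 48 h in growth media was 8.11. Their summed signal (log2) was 7.17 to 7.67 on all 24 h arrays. It was 20.11 to 20.20 in siZNF148 and 11.82 to 19.04 in siControl at 48 h in growth media, and 20.10 to 20.16 against 14.45 to 14.46 at 96 h. In differentiation media it was 20.34 to 20.37 against 13.69 to 15.78 at 48 h and 20.42 to 20.47 against 18.10 to 18.27 at 96 h. All 7 were above background on every array after 24 h, those of siControl included. Of 6 pericyte markers, 1, 5, 4, 4 and 4 were higher and 0, 1, 0, 0 and 1 lower, and of 6 fibroblast markers 1, 1, 1, 1 and 0 were higher and 0, 2, 2, 3 and 2 lower. Myoblast markers, 7 in number, gave 1, 4, 3, 2 and 2 higher and 0, 1, 1, 0 and 0 lower, with 5 higher at 48 h in growth media without that array, which changed no count of the other marker lists. Of 5 tested endothelial markers at most 2 were called in a direction, and ERG, an endothelial transcription factor, was below background on all 29 arrays. Mature smooth muscle markers, of which 7 of 8 were tested and 3 of those are members, gave 0, 3, 4, 4 and 5 higher and 1, 1, 1, 1 and 0 lower. The lists overlap, since DES, ACTG2 and KCNMB1 each stand in more than 1. Of all tested genes 2.46%, 11.7%, 12.3%, 15.1% and 10.5% were higher in the 5 comparisons. The shares lower were 3.08%, 12.2%, 12.4%, 17.3% and 12.8%. Single calls in lists of this size can lie near those shares. The part of other cell states in the members' changes was not tested.

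The knockdown difference of a member was then compared between times and media, as a contrast of contrasts in the same fit. From 24 to 48 h in growth media it grew for 3 of 9 members, MYH11, TPM1 and LMOD1 (10.3% of all genes), and from 24 to 96 h for 6 of 9 (11.6%), with none falling against 10.4% and 11.3%. Between 48 and 96 h it grew for TAGLN, by 1.69 (SE 0.20, adjusted p = 4.75e-06), and for CNN1, by 3.31 (adjusted p = 0.0242), 2 of 9 against 3.11%, and fell for none against 1.9%. Without the control array that stands apart LMOD1 fell there by 1.72 (adjusted p = 0.00186), and with array weights by 1.42 (adjusted p = 0.0402). At 48 h the difference was larger in differentiation than in growth media for TAGLN by 2.28 (adjusted p = 3.64e-09), CNN1 by 2.65 (adjusted p = 0.0248) and MYH11 by 3.50 (adjusted p = 0.0141), 3 of 9 against 8.13%, and smaller for none against 9.07%. The CNN1 call was lost without siControl replicate 3 in growth media (2.17, adjusted p = 0.0776), and the MYH11 value was 1.99 (adjusted p = 0.00583) without the control array that stands apart and lost its call with only the arrays of the comparison (adjusted p = 0.109). At 96 h no member's brightest probe differed between the media, against 5.55% and 6.93% of all genes, and the 95% interval for TAGLN ran from -0.25 to 0.57. Without the control array that stands apart, TPM1 with -2.10 (adjusted p = 4.11e-05), MYH11 with 1.74 (adjusted p = 0.0187) and LMOD1 with 1.66 (adjusted p = 0.000791) passed at 96 h. That array belongs to neither 96 h group, but the fit shares 1 spread over all groups. These 96 h results also depended on other settings. TPM1 passed with a stricter filter (adjusted p = 0.0435), only the arrays of the comparison (adjusted p = 2.66e-06), array weights (-2.07) and probes averaged (-1.44). LMOD1 passed with a stricter filter (adjusted p = 0.0417), only the arrays of the comparison (adjusted p = 0.00335), trended and robust variances (adjusted p = 0.0459) and array weights (1.57). MYH11 passed under normexp (2.20) and with array weights (1.82).

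In siControl cells alone, TAGLN, LMOD1 and TPM1 were called different between the media, in which the same hour may not be the same time since transfection. Counts of 1 of 9 in these siControl comparisons lie near the shares of all genes. At 48 h TAGLN was lower than in growth media by 2.70 (SE 0.13, adjusted p = 4.81e-13) and LMOD1 higher by 1.76 (SE 0.41, adjusted p = 0.00137), 1 of 9 in each direction against 7.77% of all genes higher and 8.22% lower. The LMOD1 call was lost under normexp (0.46) and with only the arrays of the comparison (adjusted p = 0.13), and was 2.53 without the control array that stands apart, when TPM1 also passed (1.06, adjusted p = 0.00114). At 96 h TPM1 was higher in differentiation media by 2.68 (SE 0.58, adjusted p = 0.000962), 1 of 9 against 6.81% higher, with none lower against 8.25%. TAGLN was lower there by 0.62 (adjusted p = 0.00199), within 2-fold. MYH11 gave 1.14 (adjusted p = 0.345) at 96 h and passed without the array that stands apart (adjusted p = 0.0298), for 2 of 9 higher. In siZNF148 cells, MYH11 was higher in differentiation media by 2.70 (adjusted p = 0.018) at 48 h and 2.88 (adjusted p = 0.0076) at 96 h, and LMOD1 by 1.63 (adjusted p = 0.00872) and 1.26 (adjusted p = 0.0302), 2 of 9 at each time against 1.13% and 1.45% of all genes higher, with none lower against 2.84% and 4.95%.

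Between 48 and 96 h no member changed in siControl growth media, where 0.402% of all genes rose and 0.0326% fell. Without the control array that stands apart LMOD1 rose by 1.51 (adjusted p = 0.00204), 1 of 9 against 1.6% of all genes. In siControl differentiation media TAGLN rose by 1.52 (adjusted p = 1.35e-08) and TPM1 by 2.31 (adjusted p = 0.00144), 2 of 9 against 5.76%, and LMOD1 fell by 1.42 (adjusted p = 0.00969), 1 of 9 against 4.22%. In siZNF148 cells TAGLN and CNN1 rose in both media, 2 of 9 each time against 4.13% in growth and 4.33% in differentiation media, with none falling against 1.82% and 3.72%. TAGLN rose by 1.13 (adjusted p = 1.42e-06) and 1.09 (adjusted p = 1.46e-06), and CNN1 by 2.58 (adjusted p = 0.00418) and 1.96 (adjusted p = 0.0215). The second TPM2 probe fell by 1.12 in siZNF148 differentiation media.

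Across the 10 group means CALD1 correlated negatively with every other member. The other members correlated positively with each other, from 0.36 for TPM1 with MYOCD upwards. The group means of MYOCD, 2.10 to 3.51, lay near background, so its correlations do not show shared expression. MYH11 and LMOD1 were above background on only 2 and 6 of 14 siControl arrays. The Pearson correlation of MYH11 was 0.91 with TPM1 and 0.89 with LMOD1, that of TAGLN with CNN1 was 0.71 and that of CALD1 with MYH11 was -0.77, all over 10 points that share arrays, slides and siRNA. Among 16219 genes with a group of arrays all above background, those most like TAGLN over the 10 means were FAM177A1 (r = 0.946), TMED9 (r = 0.945), SNORA46 (r = 0.941), SELENOK (r = 0.937) and WARS1 (r = 0.937). Those most like CNN1 were GOLGA2P9 (r = 0.965), ACYP2 (r = 0.951), RC3H2, TFDP2 and UQCR11 (each r = 0.933). GOLGA2P9 was dim, with means of 2.49 to 3.63 in the siControl groups.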

How the data were processed

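RNA from the 29 samples was hybridized to one-colour Agilent arrays. The deposited intensity values are each array's background-subtracted spot brightness from Agilent Feature Extraction (10.7.3.1 per the file headers), and the authors also deposited log2 values normalized over all arrays. Here log2 intensities were quantile-normalized over all 29 arrays, the 2075 control spots of 62976 left out, spots of a probe averaged, and 38714 of 58201 probes tested, those well above background on 2 arrays or more. Groups came from the labels. All 10 group means were fitted together with limma 3.58.1 in R 4.3.3 (lmFit, eBayes, two-sided, Benjamini-Hochberg over the tested probes of a contrast), with calls at adjusted p under 0.05 and over 2-fold as in the study's fold threshold. Probes were named through RefSeq accessions (31104 probes, 22439 genes), and a gene is given by its brightest tested probe. Where a group was below background on all arrays, folds are bounds against the lowest signal of probes above background or the probe's own. Of the array headers, 14 name hg19 and 15 none, so no probe positions are given.

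All 29 columns of the authors' log2 values matched their own array. In a test on simulated data, 155 of 200 probes changed by 2 on the log2 scale were recovered, with 2 false calls, for the 24 h comparison over 38714 probes. For the comparison at 96 h in growth media 143 of 200 were recovered, with 3 false calls. Samples of the same replicate number did not deviate together (correlations from -0.146 to 0.124), so no pairing was used. For siZNF148 at 48 h in growth media the sample titles and descriptions number the replicates differently, and the title numbers were used. Alternatives covered background correction, normalization, filters, variance model, array weights, slide and replicate blocks, the methods' t-test and leaving out each array. The 10 genes and all lists were chosen with earlier results of these data known. The named genes are all members and their probes, SRF, MRTFA and MRTFB, up to 3 rises and 3 falls per list and comparison among called genes, and the 5 genes most correlated with TAGLN and with CNN1. ACTA2, ACTG2 and MYLK are also described, chosen after their values were seen. The counts of 1 list and some of its genes are not reported here.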

Additional observations from a re-analysis of the deposited data

Results flagged for a closer look

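For several members the knockdown difference was not the same at all times or in both media, by limma's test of the difference between the 2 knockdown differences (adjusted p under 0.05 and over 2-fold, all on the log2 scale). Chance and causes were not weighed. For TAGLN the difference was 1.94 larger at 96 than at 24 h and 1.69 larger at 96 than at 48 h in growth media, and 2.28 larger in differentiation than in growth media at 48 h. Its second probe gave 1.98, 1.59 and 2.16. For CNN1 the same 3 contrasts gave 5.26, 3.31 and 2.65. The value of 3.31 lost its call without siControl replicate 3 at 48 h (2.83, adjusted p = 0.0627), siControl replicate 2 at 96 h (2.36, adjusted p = 0.18) or siZNF148 replicate 2 at 96 h (3.17, adjusted p = 0.0517), and was 4.26 without siControl replicate 1 at 96 h. The value of 2.65 lost its call without replicate 3 of either siControl group or siZNF148 replicate 2 in differentiation media. The value of 5.26 lay between 4.31 and 6.21 when 1 array was left out. Over all settings it was as low as 2.15 and kept its call, and the lowest values for 3.31 and 2.65 were 1.61 and 1.20. No siZNF148 array of 24 h was above background for CNN1, so 5.26 is a fitted value and no bound.

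The knockdown difference of MYL9 was 1.78 larger at 96 than at 24 h. For MYH11 it was 4.67 larger at 48 than at 24 h and 4.92 larger at 96 than at 24 h, and 3.50 larger in differentiation than in growth media at 48 h, with 4.59, 4.69 and 3.05 for the second probe. Without siControl replicate 1 at 48 h in growth media, the first was 6.17 and the third 1.99. The value of 3.50 also lost its call with only the arrays of the comparison (adjusted p = 0.109). The second probe's 3.05 lost its call without siControl replicate 1 at 48 h in differentiation media (2.63, adjusted p = 0.0504). These MYH11 values set groups below background against each other and are fitted values, not bounds. For LMOD1 the difference was 3.05 larger at 48 than at 24 h, or 3.83 without the same growth media control, and 2.11 larger at 96 than at 24 h, which lost its call without siControl replicate 1 at 96 h (1.89, adjusted p = 0.0524). Both LMOD1 values lost their call under normexp (0.78 and 0.62, within 2-fold) and with probes averaged (1.76, adjusted p = 0.051, and 1.03, adjusted p = 0.294), and no LMOD1 array of 24 h was above background.

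For the brightest TPM1 probe the difference was 3.25 larger at 48 than at 24 h, or 4.33 without siControl replicate 1 at 48 h, and 3.36 larger at 96 than at 24 h. The TPM1 probe A_23_P206018 gave 1.01 for 96 minus 24 h and 1.29 for 96 minus 48 h in growth media, and -1.85 and -1.21 for differentiation minus growth media at 48 and 96 h. A_24_P44462 gave 1.36 for 96 minus 24 h and -1.02 for differentiation minus growth media at 96 h. The values 1.01 and -1.02 each fell within 2-fold when 1 of 3 arrays was left out (0.93 to 0.99 for the first, and as little as -0.98 for the second). The TPM2 probe A_23_P216501 gave -1.70 for 48 minus 24 h and -2.05 for 96 minus 24 h in growth media.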

How the results depend on the processing

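Over 180 differences of single members and probes and 3817 values under other settings, no called difference changed sign, 3697 values kept their side of the threshold, 50 lost the call and 67 gained it. The other 3 passed the threshold with the opposite sign of an uncalled value: TPM2 with probes averaged (-1.13 and -1.16 at 48 and 96 h in differentiation media, against 0.18 and 0.57) and TPM1 in siControl media at 48 h without siControl replicate 1 in growth media (1.06 against -0.01, with a range from -0.57 to 1.06 over the arrays left out). MYH11 was above background on 2, LMOD1 on 6, MYOCD on 0 and CNN1 on 11 of the 14 siControl arrays, which limits what their folds can show. The count of members lower at 24 h, 1, was 0 under normexp, with only the arrays of the comparison and by the methods' t-test unadjusted or adjusted, and 2 without the fold threshold. The count higher at 48 h in growth media, 3, was 1 with only the arrays of the comparison and 0 by the methods' t-test after adjustment. The count higher in differentiation media in siControl at 48 h, 1, was 0 under normexp, with only the arrays of the comparison, by the methods' t-test unadjusted or adjusted and with probes averaged, and at 96 h it was 2 without the fold threshold, against 1. Without the fold threshold the members lower were also 2 for siControl media at 96 h and 1 each at 48 h in growth, 96 h in growth and 48 h in differentiation media, against 0. With probes averaged by gene 1 member, TPM2, was lower at 48 h (-1.13) and at 96 h (-1.16) in differentiation media, against 0, and LMOD1 at 96 h in growth media was 0.57 (adjusted p = 0.429). The methods' t-test after adjustment also lost the call of CNN1 at 96 h in growth media.

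With each array left out in turn, the members higher on knockdown ranged from 0 to 0 at 24 h, 3 to 3 and 5 to 6 at 48 and 96 h in growth media, and 5 to 5 and 6 to 6 in differentiation media. Those lower ranged from 0 to 1 at 24 h, and from 0 to 0 in the other 4. For siControl media the members higher ranged from 1 to 2 at both 48 and 96 h and those lower from 1 to 1 and 0 to 0. MYH11 at 48 h in growth media was 5.76 without siControl replicate 1 and 3.50 and 3.51 without replicates 2 and 3, and at 96 h in differentiation media 6.87 without siControl replicate 3.

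With the replicate number as a block, 46798 probes were called over all contrasts against 46958 without it, and all 194 results for members kept their side. By the title numbers, samples of the same number did not deviate together. This does not settle pairing for siZNF148 at 48 h in growth media, where titles and descriptions differ. Slide as a random block gave a consensus correlation of 0.0827.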
